A study of Rattus norvegicus with 12 samples.

Results

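Mir802 is the gene of the microRNA miR-802, and it is 1 of the 432 microRNA genes among the 444 features of a small RNA sequencing table of rat liver. It was chosen by its row in that table, with its level in all 12 libraries and an earlier comparison of the groups already known, so its levels and group differences are given here as a description and carry no test. The rats were male Jcl:SD (Sprague-Dawley, an outbred stock), 7 weeks of age, and were dosed by mouth on 5 days in a row with 5 rats per group. Control rats received the vehicle, sterile distilled water, which also carried the drugs in the other groups. CAF rats received caffeine at 120 mg/kg, DEX rats dextromethorphan hydrobromide monohydrate at 100 mg/kg, and CAF+DEX rats both drugs at those doses. Liver was taken 1 h after the last dose, and 3 libraries per group are in the table. Caffeine blocks adenosine receptors, and dextromethorphan is a cough suppressant that acts on NMDA and sigma receptors.

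A microRNA is cut from a hairpin precursor and guides silencing complexes to messenger RNAs that pair with its seed, bases 2 to 8 of the mature strand. miR-802 is made in liver, pancreas and intestine. It is known in liver for rising in obese mice, where it impairs insulin signalling and glucose tolerance.

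The Mir802 gene (ENSRNOG00000040376, transcript ENSRNOT00000062129) lies on the plus strand of chromosome 11, from 32626525 to 32626620 on rn7, the build of the table, and is 96 bases long. In the RefSeq annotation of a later build, GRCr8, the interval of the long noncoding RNA gene LOC134480977 spans it. The next protein-coding genes are Runx1 on the lower side and RGD1562683, Setd4 and Cbr1 on the upper side. Exon and intron positions within the noncoding gene were not analysed here. The hairpin is shown because it is the whole feature to which reads were assigned. It is the RefSeq entry of GRCr8, plus strand, printed 5′ to 3′, with capitals at the bases that are paired in the lowest-energy fold computed from the letters.

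Mir802 hairpin: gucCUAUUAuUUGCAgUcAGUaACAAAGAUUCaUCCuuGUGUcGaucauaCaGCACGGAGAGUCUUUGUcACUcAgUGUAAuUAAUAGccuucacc

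The fold had 33 base pairs (11 of G with C, 19 of A with U and 3 of G with U), an end loop of 6 bases and a free energy of -31.3 kcal/mol. The GC content of the hairpin was 40.6%, against a median of 49.4% over 419 rat hairpins of the same reference, of which 14.3% had a lower value. None of the other 418 hairpins shared a run of 16 bases with it, so no other listed microRNA is a near copy of Mir802. Mir19b1 and Mir19b2, as well as the copies of miR-29b, each share a mature 3p strand, and reads of that strand cannot be assigned to 1 copy. Reads of both arms of the hairpin count toward the 1 value per library.

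Levels are in FPKM, fragments per kilobase of feature per 1000000 reads on the listed features, as the authors computed them. The read totals behind them, recovered from the steps between low values, ran from 2863572 to 3418568 per library. The labelled tissue was checked only in part, on a list of hepatocyte microRNAs that does not hold every marker of these cells. Its 16 tested features took 42.4 to 46.7% of reads in each library. Mir192, abundant in hepatocytes, was the first feature by mean FPKM. The labels used here name no date or batch, and which rat gave which library is not stated there.

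In Control, Mir802 stood at 85184 FPKM in library 1, 74283 in library 3 and 81999 in library 4. In CAF it stood at 101704 FPKM in library 1, 97433 in library 2 and 109923 in library 5. All 3 CAF libraries lay above all 3 Control libraries, with no overlap. In DEX it stood at 82718 FPKM in library 1, 83401 in library 2 and 87094 in library 4, so only library 4 exceeded the highest Control library. In CAF+DEX it stood at 82733 FPKM in library 1, 99738 in library 2 and 112992 in library 5. Libraries 2 and 5 were above all Control and all DEX libraries, whereas library 1 lay within the Control range and just above the lowest DEX library. The 5 highest of the 12 libraries were therefore 5 of the 6 that received caffeine. The remaining caffeine library, CAF+DEX library 1, lay below Control library 1 and DEX libraries 2 and 4.

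**Figure D1:**
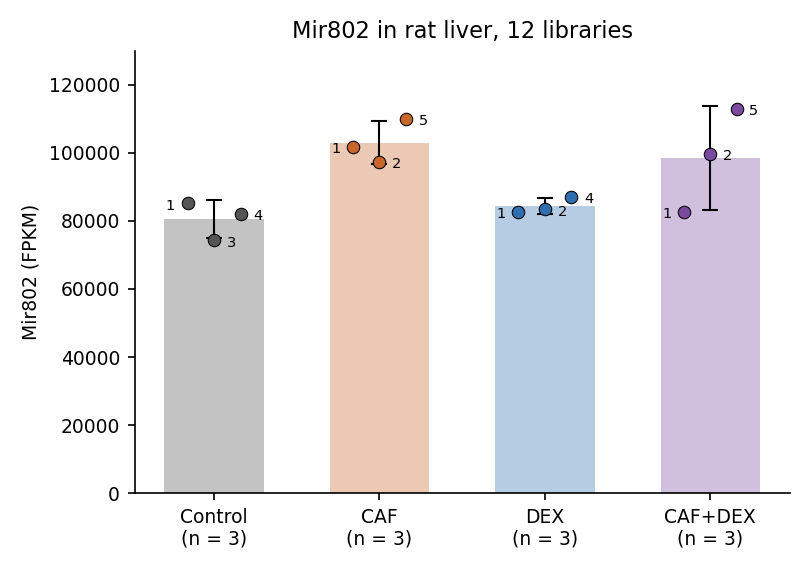
Mir802 level in FPKM (vertical axis, from 0) by treatment group; bars are group means, error bars are the SD of 3 libraries, and points are libraries with their header number. The CAF points lie between 97433 and 109923 FPKM, above every Control point, and CAF+DEX is the most scattered group.

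The group means followed the order CAF, CAF+DEX, DEX, Control. They were 103020 ± 6348 FPKM (SD, n = 3) in CAF, 98487 ± 15168 in CAF+DEX, 84404 ± 2354 in DEX and 80488 ± 5605 in Control. Neighbours in this order overlapped in every case: CAF with CAF+DEX, CAF+DEX with DEX, and DEX with Control. CAF did not overlap with DEX or with Control. The share of all features without overlap is given below for CAF above Control only. The mean in CAF was 1.28 times the Control mean, that in CAF+DEX 1.22 times and that in DEX 1.05 times. The coefficient of variation between libraries was 15.4% in CAF+DEX, 6.96% in Control, 6.16% in CAF and 2.79% in DEX. Between 23360 and 36452 reads per library supported these values, which gives a counting error of 0.524 to 0.654%, less than the spread between libraries in each group. Reads need not be independent molecules, so this covers counting error only.

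As a share of all reads, Mir802 held 0.773 ± 0.0538% (SD, n = 3) in Control and 0.989 ± 0.0609% in CAF. The lowest share was 0.713% in Control library 3 (95% Wilson interval 0.704 to 0.722%) and the highest was 1.08% in CAF+DEX library 5 (1.07 to 1.10%). Per length, Mir802 reached 5.66 ± 0.343% of the Mir192 level in Control, 7.22 ± 0.746% in CAF, 6.42 ± 0.263% in DEX and 7.26 ± 0.865% in CAF+DEX.

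Differences between groups were taken on the scale log2(FPKM + 4.01), where 4.01 FPKM is the 10th percentile of values above 0, with standard errors from 1 limma model of all 12 libraries and the 293 features above 0 in at least 3 of them. Mir802 differed by 0.36 (SE 0.10) between CAF and Control and by 0.07 (SE 0.10) between DEX and Control. CAF+DEX differed from Control by 0.28 (SE 0.10), from CAF by -0.07 (SE 0.10) and from DEX by 0.21 (SE 0.10). The comparisons with Control share the 3 Control libraries. The interaction, the caffeine difference with dextromethorphan minus that without it, was -0.15 (SE 0.14). Over all 293 features, 26 had a larger positive difference than Mir802 in CAF against Control, 29 in CAF+DEX against Control and 108 in DEX against Control. Of the 135 features averaging at least 100 reads, 1 had a larger positive difference than Mir802 in CAF against Control, and 1 other feature did in CAF+DEX against Control. The first was Mir320a at 0.37 (SE 0.20, limma adjusted p = 0.506) and the other Mir450a1 at 0.39 (SE 0.20, limma adjusted p = 0.577), and neither was called. In DEX against Control, 39 of the 135 features had a larger positive difference than Mir802. Mir802 itself carries no test, and its place in these orders restates the values that led to its choice.

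For background, 19 of the 293 features (6.48%) had all 3 CAF libraries above all 3 Control libraries, and Mir802 is among them by the values that led to its choice. At a Benjamini-Hochberg adjusted p under 0.05 in limma, 2 features (0.683%) passed in CAF against Control. They were Mir142, of blood cell lineages, and Mir146a, a brake on innate immune signalling, and both fell. The other 4 comparisons called 0 features (0.0% each), with 13 at an unadjusted p under 0.05 in DEX against Control, 30 in CAF+DEX against Control, 15 in CAF+DEX against CAF and 23 in CAF+DEX against DEX.

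The difference between CAF and Control ran from 0.30 without Control library 3 to 0.40 without Control library 1. As the CAF libraries all lay above the Control libraries, leaving out 1 library could not change its sign. It also kept its sign under the other pseudocounts and scalings. Values with CAF+DEX turned on its libraries 1 and 5. Against Control, CAF+DEX was at 0.40 without library 1 and 0.18 without library 5, and at 0.15 with quantile normalization, which ties a value to its rank within the library. Against DEX it was at 0.33 without library 1, 0.11 without library 5 and 0.11 with quantile normalization. Against CAF it changed sign to 0.05 without library 1 and was -0.18 without library 5, -0.11 without CAF library 2, -0.03 without CAF library 5, -0.19 with quantile normalization and -0.12 with the 10 most abundant features left out of the total. The interaction was -0.03 without CAF+DEX library 1, -0.25 without library 5, -0.09 without Control library 3 and -0.23 with quantile normalization. DEX against Control was at 0.01 without Control library 3, 0.11 without Control library 1, 0.04 with quantile normalization and 0.03 without the 10 most abundant features.

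**Figure D2:**
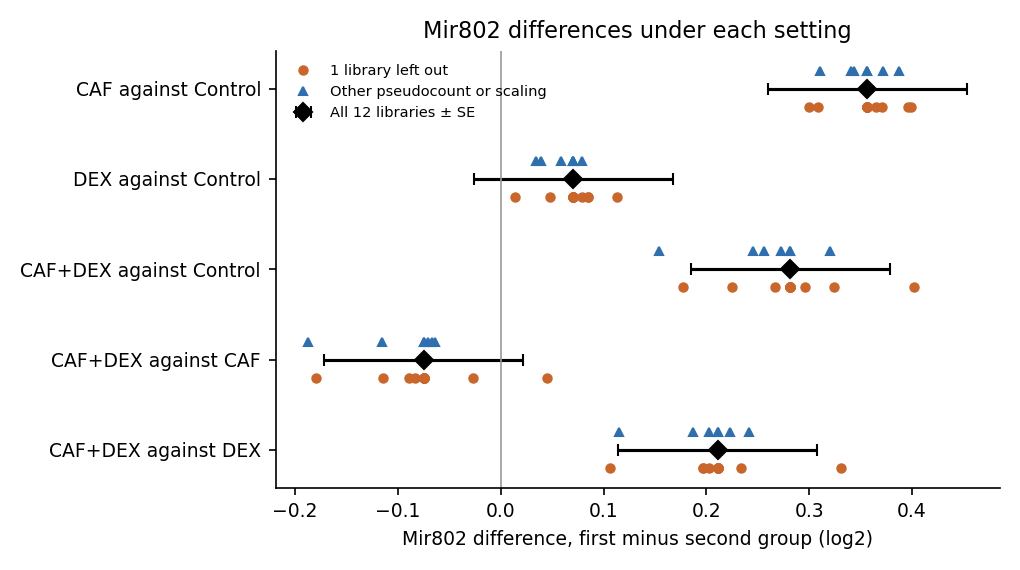
Difference in Mir802 between groups (horizontal axis, log2, first minus second group) for 5 comparisons; black diamonds are the fit of all 12 libraries with its SE, orange circles leave out 1 library each, and blue triangles use another pseudocount or scaling. The CAF against Control points run from 0.30 to 0.40, and only CAF+DEX against CAF has a point on each side of 0.

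Of the marker lists of other cell types, only the leukocyte list had called members, 2 in CAF against Control. The summed level of 6 leukocyte microRNAs, Mir142 and Mir146a included, ran from 256370 to 291122 FPKM across the Control libraries and from 252967 to 288492 FPKM across those of DEX. With caffeine the range was 170746 to 209357 FPKM (CAF) and 191008 to 234448 FPKM (CAF+DEX). All 6 were lower in the mean of CAF than of Control, and 0 were at 0. The sum of 3 erythroid microRNAs was 12584 to 15141 FPKM in Control and 7502 to 14237 in CAF, with all 3 lower in the mean and 0 called. The muscle list, with 3 features and few reads, had 0 called, with sums of 61.5 to 120.3 FPKM in CAF, below the 145 to 343 FPKM of Control. Its sums were 172 to 241 FPKM for DEX libraries and 127 to 351 FPKM for CAF+DEX libraries. Lists for stellate cells (4 features), bile ducts (3) and endothelium (1) had 3, 1 and 1 features higher in CAF than in Control and 0 called. The part of these cell types in the Mir802 values was not tested. In bulk liver, fewer cells of a type and less RNA per cell cannot be told apart. A setting chosen after seeing the data left the reads of the leukocyte and erythroid lists out of the totals. These lists held from 1.81% of reads (CAF library 5) to 3.09% (Control library 3), so the setting could move Mir802 only little. It gave 0.34 for Mir802 in CAF against Control and 0.27 in CAF+DEX against Control. Of the pancreas list, another tissue that makes miR-802, Mir216b was at 0 in all 12 libraries, Mir216a reached at most 15.7 FPKM and Mir217 at most 5.67 FPKM. Mir7-1 and Mir8, the gene of miR-7a-2, which are on the same list, averaged 32747 and 28052 FPKM. Mir375, an islet microRNA and the last of the 6, averaged 497 FPKM (118 reads) and was above 0 in all 12 libraries.

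By mean FPKM over the 12 libraries, Mir802 was the feature of rank 28, with ranks of 25 to 31 in single libraries. By reads in place of FPKM its rank was 27. It ranked 28 to 31 in Control, 25 or 26 in CAF, 28 or 29 in DEX and 25 to 30 in CAF+DEX. The 4 most abundant features were Mir192 at 1381310 ± 75963 FPKM (SD over 12 libraries), Mir101-2 at 1048200 ± 42164, Mirlet7f2 at 716471 ± 27113 and Mir26b at 692208 ± 26650, against 91600 ± 12336 for Mir802. Among 19 features, the hepatocyte list with Mir802 added, it held place 11 in all 12 libraries, and among the 26 features of the insulin and glucose list it held place 5 in all 12.

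The next features above it were Mir142 at 103874 ± 19890 FPKM (SD over 12 libraries), Mir146a at 101050 ± 19272 and Mir152, a relative of miR-148 known for targeting a DNA methyltransferase, at 94337 ± 7085. Next below it were Mir19b1, a member of the miR-19 family, at 86771 ± 7489 FPKM, Mir322-2, of the miR-15 and miR-16 family, at 80962 ± 7093 and Mir19b2 at 80057 ± 6895. The order among these neighbours changed between groups. Mir142 and Mir146a exceeded Mir802 in all 3 Control and all 3 DEX libraries and in 0 of 3 CAF libraries. In CAF+DEX, Mir142 exceeded it in 2 of 3 libraries and Mir146a in 0. Mir152 exceeded it in 9 of 12 libraries, with 1 of 3 in CAF. Mir19b1 exceeded it in 4 of 12 and Mir322-2 in 2, while Mir19b2 was below it in each library.

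**Figure D3:**
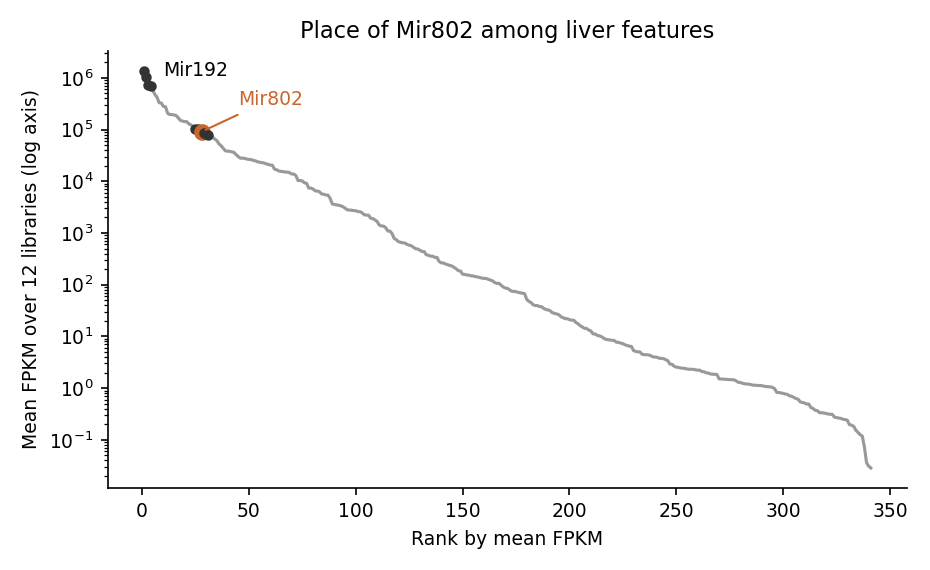
Mean FPKM over 12 libraries (vertical axis, log scale) against rank for the features above 0 in any library; dark points are the 4 most abundant features and the 3 next above and below Mir802, the orange point. Mir802 at 91600 FPKM and rank 28 sits high on the curve, 0.0663 times the level of Mir192.

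The insulin and glucose list held 23 microRNAs known to act on insulin signalling or glucose output, among them miR-103 and miR-107 (caveolin-1), miR-143, miR-29 and miR-26. It had 25 tested features other than Mir802, and miR-29a and miR-29c had no feature in the table. In CAF against Control, 12 were higher and 13 lower, with 0 called in either direction and a median of -0.01 on the log2 scale, against 0.00 over all 293 features. In DEX against Control, 14 were higher and 11 lower with a median of 0.02, against 0.00. In CAF+DEX against Control, 12 were higher and 13 lower with a median of -0.01, against -0.01. No member was called in any of these, nor in the comparisons of CAF+DEX with each drug alone.

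The 2 copies of miR-29b, which targets collagen transcripts and is also studied in insulin resistance, had the smallest p of the list in all 3 comparisons with Control. Mir29b-3 stood at 13053 ± 493 FPKM (SD, n = 3) in Control, 15278 ± 299 in CAF, 15009 ± 433 in DEX and 15556 ± 508 in CAF+DEX. Its 3 libraries of each drug group lay above the same 3 Control libraries, so these are not 3 separate results. Over all features tested, 6.48% lay so in CAF, and no such share is given here for DEX or CAF+DEX. Its difference from Control was 0.23 (SE 0.06) in CAF, with a limma adjusted p = 0.09, 0.20 (SE 0.06) in DEX with an adjusted p = 0.312, and 0.25 (SE 0.06) in CAF+DEX with an adjusted p = 0.0906. Mir29b1, a copy with the same 3p strand, gave 0.21, 0.20 and 0.24. The copies passed in CAF and in CAF+DEX with no filter on low values, in CAF+DEX also with a pseudocount 10 times larger, and Mir29b-3 passed in CAF with quantile normalization. In DEX against Control, Mir802 was at 0.07 and Mir29b-3 at 0.20. Whether these microRNAs differ from each other in that comparison was not tested.

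The other members named have the next smallest p in a comparison with Control, and none passed with all 12 libraries. Mir144, an erythroid microRNA that targets Irs1, was at -0.53 (SE 0.20, limma adjusted p = 0.28) in CAF against Control and Mir451a, from the same cluster, at -0.44 (SE 0.19, limma adjusted p = 0.361). Both passed without CAF library 1, at -0.82 and -0.72. Neither passed without CAF library 2, at -0.40 and -0.35, or without CAF library 5, at -0.36 and -0.25. In CAF+DEX against Control, Mir34a, a p53 target that lowers Sirt1, was at -0.51 (SE 0.18) and Mir7-1, known in islets, at -0.27 (SE 0.10), each with a limma adjusted p = 0.351. Mir22 and Mir26a were higher, at 0.11 (SE 0.05) and 0.15 (SE 0.08) in DEX against Control, each with a limma adjusted p = 0.842.

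**Figure D4:**
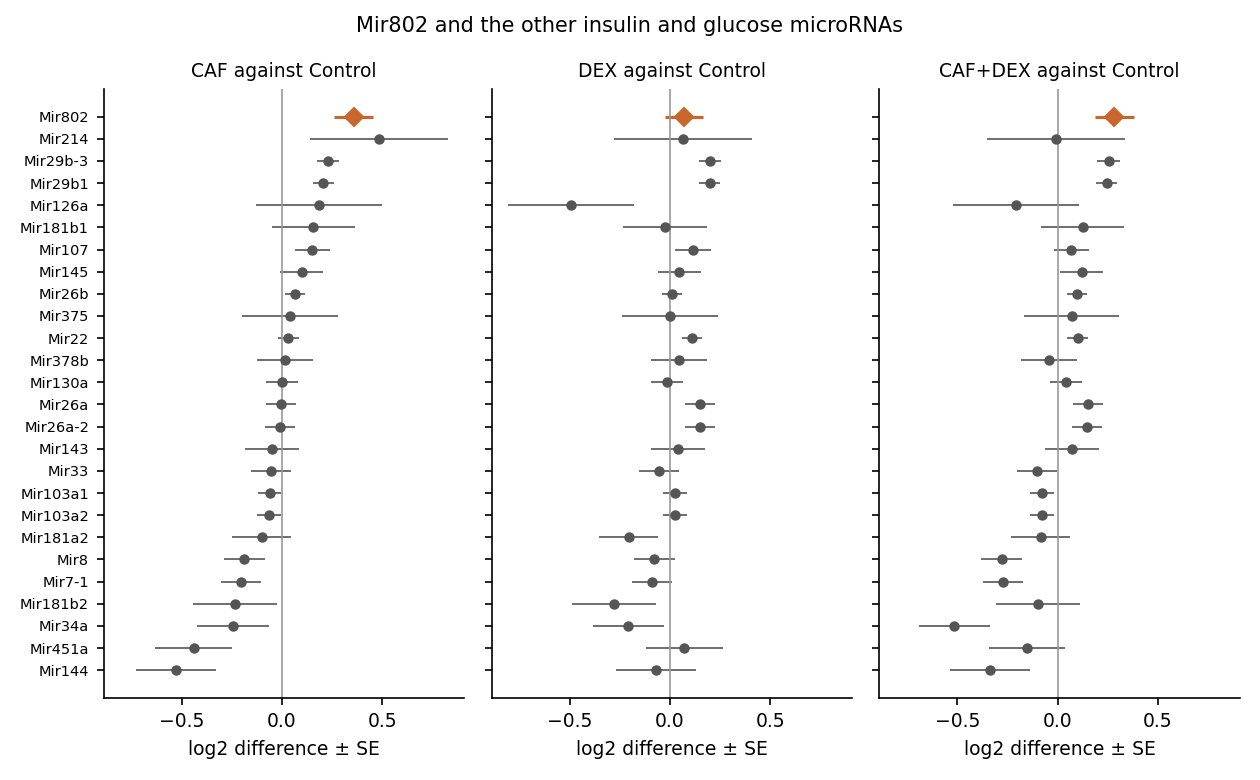
Difference from Control (horizontal axis, log2, with SE) in CAF, DEX and CAF+DEX for Mir802 (orange diamonds) and 25 other insulin and glucose microRNAs (grey points), ordered by their CAF value. Mir802 is at 0.36, 0.07 and 0.28, and the miR-29b copies lie between 0.20 and 0.25 in all 3 panels.

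The hepatocyte list had no called member in any comparison. Of its 16 tested features, 15 were higher and 1 lower in CAF than in Control, with differences from -0.09 to 0.16, a median of 0.04 and 0 called. The Mir802 difference of 0.36 lay outside that range, and taken as a ratio to the mean of the list it was 0.31. In CAF+DEX against Control the list ran from -0.08 to 0.14 with a median of 0.03 and 0 called, and the ratio of Mir802 to it was 0.25. In DEX against Control it ran from -0.13 to 0.14, with 7 higher, 9 lower, 0 called and a median within 0.01 of 0. Over all 293 features the medians were 0.00, -0.01 and 0.00 in these 3 comparisons. Mir30a had the smallest p in CAF against Control, at 0.12 (SE 0.07, limma adjusted p = 0.506), followed by Mir27b at 0.08 (SE 0.06, limma adjusted p = 0.661), Mir30c1 at 0.10 and Mir30c2 at 0.10. Mir27b was lower in DEX, at -0.13 (SE 0.06, limma adjusted p = 0.842), and Mir192 was at -0.11 in DEX and -0.07 in CAF+DEX. Mir365-1 was at 0.14 in DEX and 0.12 in CAF+DEX, and Mir365b at 0.12 in CAF+DEX. Of this list, Mir30e and Mir193a were at 0 in all 12 libraries.

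The nearest detected features on the chromosome, 2.71 to 16.43 Mb away, were lower in the mean of CAF than of Control, and none was called. The table has 17 features on chromosome 11, of which 5 were at 0 in all libraries. The nearest detected ones were Mir6324, 2.71 Mb away at 142 FPKM, and Mir155, a leukocyte microRNA 8.85 Mb away at 781 FPKM. In CAF against Control, Mir155 was at -0.61 (SE 0.17, limma adjusted p = 0.114) and Mir6324 at -0.39 (SE 0.19, limma adjusted p = 0.421). Mirlet7c1, 16.43 Mb away, was at -0.15 (SE 0.08, limma adjusted p = 0.506) and Mir99a, beside it, at -0.02 (SE 0.06, limma adjusted p = 0.935). Farther away, Mir28 at 0.10 (SE 0.08) and Gm24572 at 0.31 (SE 0.39, a mean of 0.333 reads) were higher in CAF. Mir185, Mir1306, Mir301b and Mir130b were lower, and none of these was called.

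Of 134 other features averaging at least 100 reads, those whose log2 levels followed Mir802 most closely over the 12 libraries were Mir152, Mir19b2, Mir19a, Mir19b1 and Mir29b-3. Those most opposed to it were Mir16, Mir15a and Mir342. The median correlation over the 134 features was 0.07, with 14 above 0.5 and 19 below -0.5. These features were picked as the extremes of 134 from libraries that share their group structure, and each library's values share 1 total, so the coefficients are descriptions and carry no p. The Mir802 values also leave a gap between the 7 lower and 5 higher libraries, which a coefficient over all 12 reads as a slope. The mature strands of the named features are shown, from RefSeq on GRCr8 and 5′ to 3′, because their seeds, in capitals, show which of them are 1 family. A mature sequence was matched for 9 of the 11 features named for likeness. The strand given is the arm usually taken as the active one.

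miR-152-3p: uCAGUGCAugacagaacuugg
miR-19a-3p: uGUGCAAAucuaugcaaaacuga
miR-19b-3p: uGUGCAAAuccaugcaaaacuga
miR-16-5p: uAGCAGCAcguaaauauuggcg
miR-342-3p: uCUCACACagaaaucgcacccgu

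The strands of miR-19a and miR-19b share the seed GUGCAAA, and Mir19b1 and Mir19b2 have the same mature strand, so the 3 features are 1 seed family, and those of miR-19b are not independent of each other. Mir152 had a Pearson coefficient of 0.88 with Mir802 (Spearman 0.85), 0.89 without the 2 libraries farthest from the Mir802 median (CAF library 5 and CAF+DEX library 5) and 0.79 after group means were removed. It stood at 90267 ± 3864 FPKM (SD, n = 3) in Control, 101780 ± 4982 in CAF, 87283 ± 1003 in DEX and 98018 ± 5697 in CAF+DEX. Its 3 CAF libraries, at 102613, 96434 and 106293 FPKM, lay above its 3 Control libraries, at 93534, 86003 and 91264 FPKM. The difference between CAF and Control was 0.17 (SE 0.06, limma adjusted p = 0.206), which did not pass. Mir148a and Mir148b, which share the seed CAGUGCA with Mir152, had coefficients of -0.07 and 0.27 with Mir802.

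The coefficients of Mir19b2, Mir19a and Mir19b1 were 0.78 each (Spearman 0.76, 0.78 and 0.76), and were 0.49, 0.52 and 0.49 without the same 2 libraries, so they rest in part on those libraries. Mir29b-3 had 0.70 (Spearman 0.78), and 0.59 without them. After group means were removed, the closest were Mir3545 at 0.81, Mir152 at 0.79, Mir19a at 0.74, Mir190 at 0.71 and Mir3559 at 0.67. Over all 12 libraries, Mir3545, Mir190 and Mir3559 had 0.49, 0.12 and 0.25. For Mir3545 and Mir3559 the coefficient was -0.09 and -0.08 without the 2 farthest libraries.

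Mir16, of a family that targets cell cycle genes, had the lowest coefficient, -0.92 (Spearman -0.90), -0.85 without the 2 farthest libraries and -0.87 after group means were removed. It stood at 438148, 473522 and 439635 FPKM in Control libraries 1, 3 and 4, and at 420330, 401512 and 384483 FPKM in CAF libraries 1, 2 and 5. In CAF+DEX it was at 440907, 381454 and 368908 FPKM in libraries 1, 2 and 5, so library 1 lay within the Control range, as for Mir802. Mir16 was picked as the feature most opposed to Mir802, so this likeness follows in part from that choice. The 3 CAF libraries of Mir16 were below its 3 Control libraries, which the same choice makes likely. No share over all features is given here for this direction. The difference was -0.16 (SE 0.07, limma adjusted p = 0.361) in CAF and -0.19 (SE 0.07, limma adjusted p = 0.406) in CAF+DEX against Control, and neither passed. Mir15a is by name of the miR-15 and miR-16 family, so it need not be independent of Mir16, though no mature sequence was matched for it. It had -0.86 (Spearman -0.86), -0.81 without the 2 libraries and -0.88 after group means were removed. Mir342, of blood cell lineages, had -0.85 (Spearman -0.82), -0.76 and -0.58, and was at -0.50 (SE 0.12, limma adjusted p = 0.09) in CAF against Control.

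**Figure D5:**
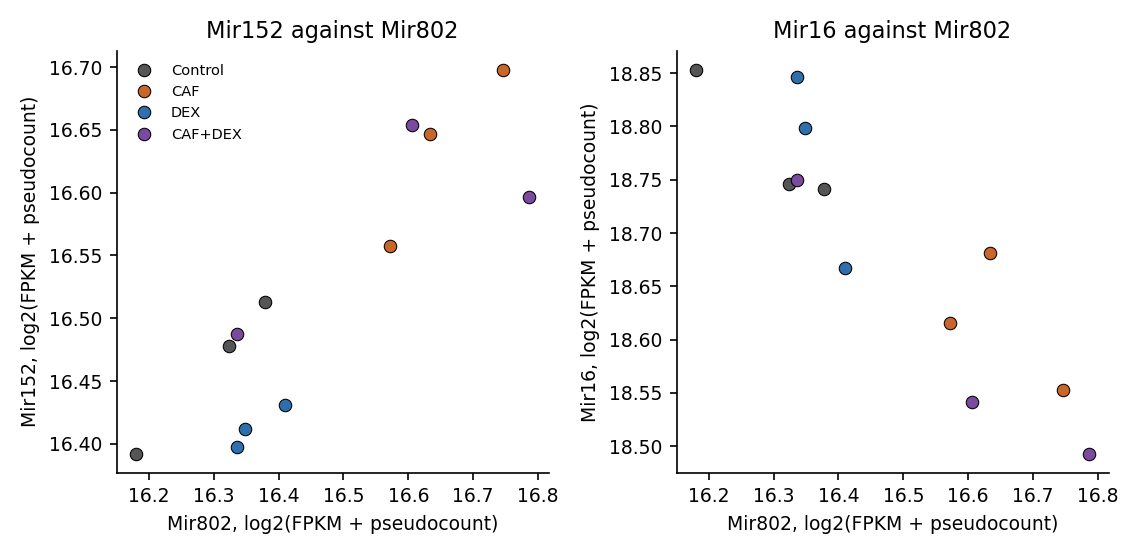
Level of Mir152 (left) and Mir16 (right) against the level of Mir802 in the 12 libraries, all as log2(FPKM + 4.01), with colours for the 4 groups. Mir152 is higher and Mir16 lower where Mir802 is higher, with coefficients of 0.88 and -0.92, and CAF+DEX library 1 lies among the Control points.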

How the data were processed

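Small RNA libraries of 12 rat liver samples were made with a QIAseq kit whose primers carry molecular indices, per the labels' protocols; the sources used here do not state whether the indices were collapsed. The deposited values are FPKM computed by the authors. The submitters' processing notes name cutadapt 3.7, STAR 2.7.11b, featureCounts of Subread 2.0.6 and build rn7. FPKM times length in kilobases summed to 1000000 in each library. Multiplied by a recovered total, values were multiples of 0.01 read within 2e-05 read, with 50.5 to 58.3% of features above 0 at whole reads. Columns could be matched to groups but not to sample titles, so library numbers are names only, and as no label ties libraries to separate rats, p-values reflect library-to-library spread that may be technical.

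Tests used limma 3.58.1 with trend (R 4.3.3) on log2(FPKM + 4.01), 4 group means, 293 features above 0 in at least 3 of 12 libraries, and Benjamini-Hochberg adjustment over all 293. The fit was checked on simulated data with changes larger than those of Mir802, so the check does not cover differences of its size. The hairpin was folded with RNAfold 2.7.2. Mir802 and the lists were chosen with earlier results of these data known. Features named are Mir802, its 3 neighbours in rank on each side, the 4 most abundant, the 5 most and 3 least correlated with it, the 5 most correlated after removing group means, called features, and the 4 listed members with the smallest p per comparison with Control. Mir320a, Mir450a1, chromosome neighbours and other seed relatives were named after their values were seen.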

Additional observations from a re-analysis of the deposited data

How the results depend on the processing

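The Mir802 differences between CAF, DEX or CAF+DEX and Control, that between CAF+DEX and DEX and the interaction kept their signs in every alternative setting run, and each moved by less than the pooled SD of Mir802 between libraries, 0.13 on the log2 scale. For CAF against Control, leaving out 1 library could not change the sign, because the groups do not overlap. CAF+DEX against CAF, at -0.07, reached 0.05 without CAF+DEX library 1. The count of called features was less steady. In CAF against Control it was 2, with 4 under quantile normalization, 0 in a fit of only the 2 groups compared, and 0 to 10 with 1 library left out. It was 0 when Control 1, Control 3, CAF 2 or CAF 5 was dropped, 1 when DEX 2 was, 4 when CAF+DEX 1 was, 5 when Control 4 was and 10 when CAF 1 was. With no filter it was again 2, but Mir142 and Mir146a no longer passed and both miR-29b copies did. In CAF+DEX against Control it was 0, with 2 under a pseudocount 10 times larger, 2 with no filter and 1 under quantile normalization. In CAF+DEX against DEX it was 0, with 1 under quantile normalization, 1 with trimmed-mean (TMM) scaling and 0 to 1 with 1 library left out, the 1 when Control 3 or DEX 4 was dropped. In DEX against Control it was 0 to 1, the 1 when Control 3 was dropped. The cause was not tested. No paired analysis was possible because no label ties the numbers in the table's headers, which differ from those in the sample titles, to an animal, litter or batch; a fit blocked on them was not run. For Mir802 the spread between libraries exceeded the counting error of its reads; the number of independent molecules behind them is not known.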

Other observations

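The seed of miR-16-5p, the strand most opposed to Mir802, is shared in the reference by the mature strands of Mir15b, Mir195, Mir497 and Mir322, of which the first 3, matched by symbol, were looked at after the Mir16 values were seen. Mir15b had a Pearson coefficient of -0.69 against Mir802 over 12 libraries (Spearman -0.64), -0.63 without the 2 farthest libraries and -0.09 after group means were removed, against -0.87 for Mir16. It was at -0.24 (SE 0.08, limma adjusted p = 0.175) in CAF and -0.22 (SE 0.08, limma adjusted p = 0.351) in CAF+DEX against Control. Mir195 and Mir497 had coefficients of -0.12 and 0.33 (-0.45 and -0.34 without the 2 farthest libraries), and differences of 0.00 (SE 0.09) and 0.04 (SE 0.08) in CAF against Control. Mir322-2, named among the rank neighbours, averaged 74857 FPKM in Control, 85557 in CAF, 76141 in DEX and 87292 in CAF+DEX, an order opposite to that of Mir16 at 450435, 402108, 447800 and 397090 FPKM.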
